A study of Mus musculus with 20 samples.

Results

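The genes described here were Clu, Anxa1, Msln, Spp1, Gja1, Ankrd1, Amotl2, Ajuba and Yap1, a set of regeneration-associated and YAP-linked genes, followed in mouse colonic organoids (colonoids) with and without TNFR2. They were taken by gene symbol, with earlier results of these data known, and are 9 of the 35240 gene symbols in the expression table. With a mean of 1 or more, all 9 are among the 13539 gene symbols that were tested. Colonoids are epithelial structures grown in a gel matrix from crypts of the mouse colon. Cultures came from WT mice, which carry the receptor, and from Tnfr2-/- mice, which lack TNFR2 (encoded by Tnfrsf1b) in the whole body and not in the epithelium alone. They had been passaged 5 times, and mRNA was sequenced on days 1, 2, 3, 5 and 7 post-passage (DPP). Each of the 10 groups of 1 genotype and 1 day held 2 libraries, 1 from each of 2 mice, so that 20 libraries stood for 2 WT and 2 Tnfr2-/- mice. All groups shared the medium, and no other treatment or age is given in the labels. In Tnfr2-/- libraries Tnfrsf1b lay between 2.71 and 11.5 in normalised expression (median 4.85, n = 10), against 11.1 to 21.9 in WT libraries (median 14.3, n = 10).

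After injury the intestinal epithelium can pass into a transient fetal-like state, in which stem cell genes fall and genes such as Clu and Anxa1 are switched on until the crypts are rebuilt. YAP, the transcriptional co-activator encoded by Yap1, is one of the regulators of this state. It is held in the cytoplasm by the Hippo kinases, and once in the nucleus it binds TEAD factors at target genes. Ankrd1 and Amotl2 are widely used readouts of YAP activity. Amotl2, an angiomotin, and Ajuba, a LIM-domain scaffold protein, also act on the pathway itself, Amotl2 by retaining YAP and Ajuba by restraining the LATS kinases. A freshly passaged colonoid goes through a similar regenerative phase before it differentiates.

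Because YAP acts through TEAD factors, the promoters of the genes were read for the TEAD-type motif GGAATG and for the motif of AP-1, a frequent partner of TEAD factors. Both strands were searched, so that capitals also mark the reverse complement. The letters of the AP-1 motif were TGANTCA. RefSeq promoter windows of 300 bases (250 before and 50 after each annotated start, GRCm38.p6) were found for 7 of the 9 genes, in 8 windows. None was found for Clu and Msln. The TEAD-type motif was present in windows of 5 of these 7 genes, namely Yap1, Amotl2, Ajuba, Anxa1 and Ankrd1, while 14.7% of all 32851 windows held it. The AP-1 motif was present in 1 of the 7, Gja1, against 7.8% of all windows. Neither motif was present in the 2 windows of Spp1. These are matches of letters and are not shown to be bound. The 250 bases before the start are printed 5′ to 3′ on the strand of the gene for Ajuba, which had 2 TEAD-type matches, for Yap1 itself, for Gja1 and for 1 window of Spp1, the gene with the largest difference between genotypes, with matches in capitals.
Ajuba, chr14:54577662-54577911, minus strand: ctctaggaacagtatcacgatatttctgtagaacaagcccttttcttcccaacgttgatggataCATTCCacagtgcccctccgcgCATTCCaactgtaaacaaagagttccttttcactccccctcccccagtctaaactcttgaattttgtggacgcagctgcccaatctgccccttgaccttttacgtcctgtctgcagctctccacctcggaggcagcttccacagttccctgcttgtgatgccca
Yap1, chr9:8004597-8004846, minus strand: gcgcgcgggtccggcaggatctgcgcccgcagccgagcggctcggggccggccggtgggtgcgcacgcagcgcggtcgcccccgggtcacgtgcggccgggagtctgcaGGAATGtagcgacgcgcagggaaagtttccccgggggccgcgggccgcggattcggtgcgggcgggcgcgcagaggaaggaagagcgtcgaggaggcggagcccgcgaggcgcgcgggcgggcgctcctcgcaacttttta
Gja1, chr10:56377050-56377299, plus strand: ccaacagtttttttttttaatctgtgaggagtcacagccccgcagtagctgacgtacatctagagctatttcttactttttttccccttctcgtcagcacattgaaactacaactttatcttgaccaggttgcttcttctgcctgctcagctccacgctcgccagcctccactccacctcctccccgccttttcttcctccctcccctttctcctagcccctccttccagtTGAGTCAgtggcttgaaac
Spp1, chr5:104434861-104435110, plus strand: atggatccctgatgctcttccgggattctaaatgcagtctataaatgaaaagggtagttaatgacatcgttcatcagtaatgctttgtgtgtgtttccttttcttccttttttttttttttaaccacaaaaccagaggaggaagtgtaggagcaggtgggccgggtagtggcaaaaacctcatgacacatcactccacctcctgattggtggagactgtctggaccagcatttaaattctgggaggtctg
In Ankrd1, Amotl2 and Anxa1 the matches fell within an exon of a longer annotated transcript of the same gene, and stretches of 30 bases around the match are shown.
Ankrd1 distal match, chr19:36120037-36120066, minus strand: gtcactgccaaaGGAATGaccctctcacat
Ankrd1 proximal match, chr19:36119950-36119979, minus strand: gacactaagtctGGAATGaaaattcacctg
Amotl2, chr9:102717727-102717756, plus strand: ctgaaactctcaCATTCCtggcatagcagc
Anxa1, chr19:20390890-20390919, minus strand: actgcactgaacCATTCCtgtgaggaataa
The matches in Ankrd1 began 210 and 123 bases before the start, and those in Ajuba 186 and 164 bases before it. The match in Yap1 began 141 bases, that in Amotl2 65 bases and that in Anxa1 236 bases before the start. The AP-1 match of Gja1 began 19 bases before it. In the annotation of GRCm38 (GENCODE M21), Clu and Ajuba lie on chromosome 14 (65968483 to 65981547 and 54567472 to 54577558), and Anxa1 and Ankrd1 on chromosome 19 (20373428 to 20390944 and 36111961 to 36120099). Amotl2 and Yap1 lie on chromosome 9 (102716672 to 102733418 and 7931999 to 8004596), Msln on chromosome 17 (25748613 to 25754378), Spp1 on chromosome 5 (104435118 to 104441050) and Gja1 on chromosome 10 (56377330 to 56402513).

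The values of 1 animal have to be read before any comparison. WT mouse 1 was below WT mouse 2 at all 5 days for Clu, Msln, Gja1 and Ankrd1, and at 4 of 5 days for Anxa1 and Spp1. As a geometric mean over the 5 days, Clu stood at 516 in WT mouse 1 and 2099 in WT mouse 2, while the Tnfr2-/- mice were at 1779 and 1640. Ankrd1 was likewise lowest in WT mouse 1, with 3.44 in WT mouse 1, 14.3 in WT mouse 2, 16.2 in Tnfr2-/- mouse 1 and 15.2 in Tnfr2-/- mouse 2. For these genes the genotype difference therefore turned on which WT mouse was used. With 2 mice against 2, an exact two-sided permutation test over animals cannot give a p below 0.333. The p-values below therefore rest on a limma fit in which the 5 libraries of a mouse enter as separate samples. Where counts of called genes are given with a library or mouse left out, the share of all tested genes called in that fit is not given. Such counts may follow that share and are not read as results about a list.

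**Figure D1:**
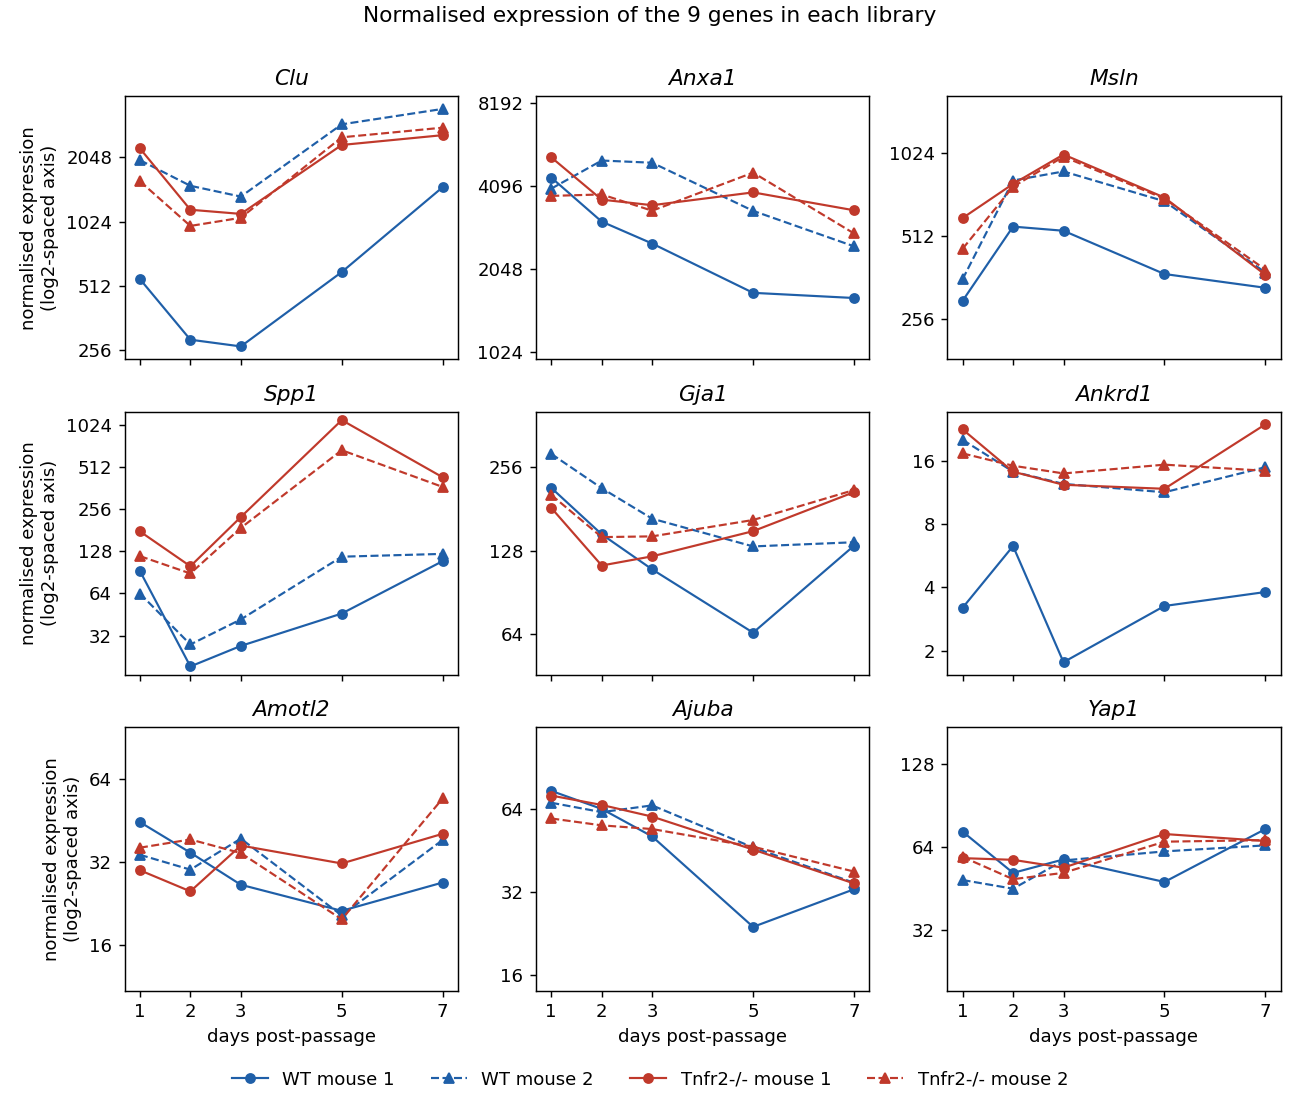
Normalised expression (size-factor-normalised TPM, log2-spaced axis) of the 9 genes against days post-passage, 1 line for each mouse. Blue lines are WT and red lines Tnfr2-/-, with mouse 1 as circles on solid lines and mouse 2 as triangles on dashed lines. Spp1 is higher in both Tnfr2-/- mice at each of the 5 days, and WT mouse 1 lies apart for Clu and Ankrd1.

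The cultures held cells other than epithelium in all libraries. The 11 epithelial markers (such as Krt8, at 3463 to 6607) summed to between 12010 and 20260 per library. Over all days 2 of the 11 were called higher in Tnfr2-/- cultures, where 7.6% of all tested genes were called. These were Cdh1, by 0.25 (SE 0.06, adjusted p = 0.0221), and Epcam, by 0.36 (SE 0.10, adjusted p = 0.0335), on the log2 scale. At 5 and 7 DPP none of the 11 was called. The 12 fibroblast markers were all above 0 in every library, Pdgfra at 20.6 to 99.7 and Col3a1 at 410 to 2182. Their summed level was 2256 to 4598 in early WT libraries (1, 2 and 3 DPP), 1392 to 4415 in late WT libraries (5 and 7 DPP), 3328 to 4969 in early Tnfr2-/- libraries and 3864 to 8988 in late Tnfr2-/- libraries. Of the 12, Dcn and Vim were called higher in late Tnfr2-/- cultures, by 2.74 (SE 0.22, adjusted p = 2.16e-05) and 1.69 (SE 0.34, adjusted p = 0.0122) on the log2 scale, where 6.45% of all tested genes were called. This count of 2 was 8 without WT mouse 2, 1 without either Tnfr2-/- mouse and 0 on mouse means. Pdgfra, by contrast, differed by 0.37 (SE 0.30, adjusted p = 0.504). Among 8 immune markers, Adgre1 was at 0 in 19 of 20 libraries and Ptprc did not exceed 0.753. Of the 3 tested, Cd68 (7.12 to 42.5) alone was called higher in Tnfr2-/- cultures late (1.35, SE 0.24, adjusted p = 0.0064), where 6.45% of all tested genes were called. Over all days Csf1r was called higher as well (0.76, SE 0.20, adjusted p = 0.0285), where 7.6% of all tested genes were called. The 4 endothelial markers summed to at most 4.24 and the 4 mesothelial markers to at most 3.26, and the mesothelial marker Upk3b was at 0 in 19 of 20 libraries. In such mixed libraries, fewer cells of a type and less RNA per cell cannot be told apart. The part of fibroblasts in the gene differences given below was not tested.

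**Figure D2:**
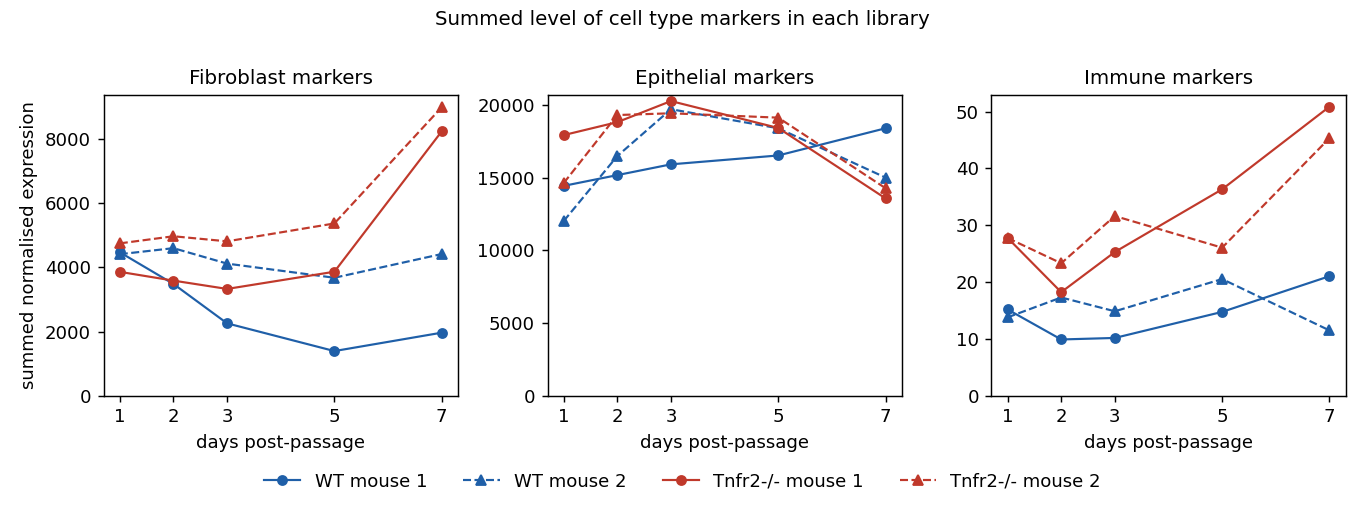
Summed normalised expression of 12 fibroblast, 11 epithelial and 8 immune markers against days post-passage, 1 line for each mouse (blue WT, red Tnfr2-/-, circles mouse 1, triangles mouse 2). At 7 DPP the fibroblast sum was 8235 and 8988 in the Tnfr2-/- mice and 1965 and 4415 in the WT mice.

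Per unit of transcript length, Anxa1 was the most abundant of the 9 genes, with a mean of 3550 ± 1020 (SD, n = 20 libraries), followed by Clu (1644 ± 934) and Msln (600.1 ± 228). Spp1 (207 ± 266) and Gja1 (163 ± 50.2) came next, and their ranges overlapped widely. Yap1 (59.4 ± 8.90) and Ajuba (52.9 ± 14.5) were within each other's spread, and Amotl2 (33.2 ± 8.60) and Ankrd1 (12.6 ± 6.28) were lowest. Anxa1, Clu and Msln were thus above 98.2% or more of all tested genes, whereas Ankrd1 was above 40.1% of them. Over all days, 2 of the 9 genes were called between genotypes (adjusted p under 0.05), Spp1 and Msln, where 7.6% of all tested genes were called in either direction. At the late days Spp1 alone was called, against 6.45% of all genes. At the early days it was again Spp1, against 1.2%. No gene of the 9 was called for a genotype difference that changed between early and late days in this fit, in which 0.148% of all genes were, and 3 of the 9 (Anxa1, Spp1 and Gja1) had an unadjusted p under 0.05, as did 1583 of all 13539 tested genes.

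**Figure D3:**
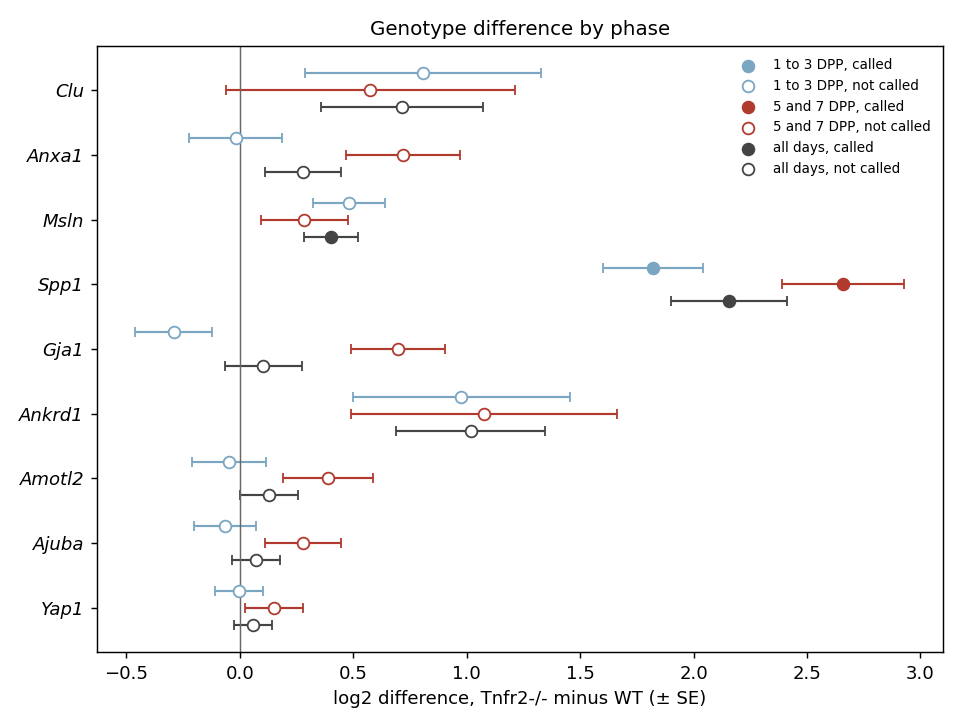
Log2 difference (Tnfr2-/- minus WT, points, with SE as bars) of the 9 genes at 1 to 3 DPP (light blue), at 5 and 7 DPP (red) and over all days (grey). Filled points had an adjusted p under 0.05. Spp1 is called in all 3, at 1.82, 2.66 and 2.16, and Msln over all days only.

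Spp1 encodes osteopontin, a secreted phosphoprotein that binds integrins and CD44. It was the gene with the largest difference between genotypes. WT mouse 1 had 92.4, 19.2, 27.0, 45.9 and 109 at 1, 2, 3, 5 and 7 DPP, and WT mouse 2 had 63.8, 27.6, 41.7, 117 and 122. The same days gave 177, 99.9, 224, 1104 and 431 in Tnfr2-/- mouse 1 and 118, 88.7, 188, 673 and 368 in Tnfr2-/- mouse 2. Both Tnfr2-/- mice were thus above both WT mice at each of the 5 days, and both genotypes had a minimum at 2 DPP. The ratio of the means (Tnfr2-/- over WT) was 1.89, 4.03, 6.0, 10.9 and 3.46 on the successive days. On the log2 scale the difference was 2.16 over all days (SE 0.26, adjusted p = 6.63e-05), 1.82 at the early days (SE 0.22, adjusted p = 9e-04) and 2.66 at the late days (SE 0.27, adjusted p = 1.39e-04). The late difference exceeded the early one by 0.84 (SE 0.35, adjusted p = 0.374), which did not pass the threshold.

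Spp1 also rose with time in both genotypes, by 1.21 in WT (SE 0.25, adjusted p = 0.00454) and by 2.05 in Tnfr2-/- cultures (SE 0.25, adjusted p = 1.62e-04) from early to late days. The call over all days was kept without WT mouse 1 (1.95, adjusted p = 2.74e-04) and without WT mouse 2 (2.36, adjusted p = 0.00115), and in each of the 20 fits that left out a single library. On mouse means, 2 against 2, the adjusted p over all days was 0.108. At the late days the call was lost without Tnfr2-/- mouse 1 (2.42, adjusted p = 0.0696), and at the early days without Tnfr2-/- mouse 1 (1.65, adjusted p = 0.166) or mouse 2 (1.99, adjusted p = 0.097). The change with time in Tnfr2-/- cultures likewise lost its call without Tnfr2-/- mouse 1 (1.98, adjusted p = 0.102) or mouse 2 (2.12, adjusted p = 0.0635). In these fits the remaining mouse is assumed to vary like the others. Most of the Spp1 signal came from 2 transcripts, ENSMUST00000031243 with 63.6% and ENSMUST00000112748 with 35.3%. The former held 49.9% of the gene's signal at the early days and 69.1% at the late days, and division of shared reads between near-identical transcripts leaves these shares uncertain.

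Of 11 tested genes for osteopontin receptors and related integrin-binding glycoproteins (Spp1 included), 5 were called higher in Tnfr2-/- cultures at the late days and none lower, where 6.45% of all tested genes were called in either direction. Their median difference was 0.69 against -0.05 over all tested genes. Besides Spp1 these were integrin subunits. Itgb1, a common beta subunit, was at 446 to 590 in late Tnfr2-/- libraries and 195 to 349 in late WT libraries (0.85, SE 0.18, adjusted p = 0.0138). Itga5, the partner of Itgb1 in the fibronectin receptor, was at 47.4 to 86.3 against 7.64 to 42.8 (1.58, SE 0.33, adjusted p = 0.0148). Itgb6, an epithelial beta subunit that pairs with the alpha-v chain, was at 78.9 to 95.9 against 38.1 to 65.6 (0.69, SE 0.16, adjusted p = 0.0248). Itgb3 was low, at 5.53 to 20.1 against 1.03 to 11.3 (1.50, SE 0.35, adjusted p = 0.0225). At the early days Spp1 was the only one of the 11 called, where 1.2% of all tested genes were, and over all days 5 were called higher and none lower (7.6% of all genes). With time, 6 of the 11 rose in Tnfr2-/- cultures, among them the alpha-v gene Itgav by 1.02 (SE 0.19, adjusted p = 0.00248), and 2 rose in WT, Spp1 and Itgav (0.68, SE 0.19, adjusted p = 0.0236). Of all tested genes, 20.3% changed with time in Tnfr2-/- cultures and 20.1% in WT, and the difference between the counts of 6 and 2 was not tested. Without WT mouse 1 the late count was again 5 and without WT mouse 2 it was 7, but it was 0 without Tnfr2-/- mouse 1 and 1 without Tnfr2-/- mouse 2. On mouse means it was 0. Fibroblasts also express several of these integrins.

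Gja1 encodes connexin 43, a gap junction protein found in mesenchymal as well as epithelial cells. It was lower in Tnfr2-/- than in WT cultures on the first days and higher on the last. At 1, 2, 3, 5 and 7 DPP its level was 216, 147, 109, 64.5 and 133 in WT mouse 1 and 287, 215, 167, 132 and 137 in WT mouse 2. Tnfr2-/- mouse 1 gave 183, 113, 122, 150.5 and 208 on these days and Tnfr2-/- mouse 2 gave 204, 143, 144, 165 and 212. At 1 and 2 DPP both WT mice were above both Tnfr2-/- mice, and at 5 and 7 DPP both Tnfr2-/- mice were above both WT mice, so that the 4 late Tnfr2-/- libraries (150.5 to 212) did not overlap the 4 late WT libraries (64.5 to 137). The genotype difference was -0.29 at the early days (SE 0.17, adjusted p = 0.524) and 0.70 at the late days (SE 0.21, adjusted p = 0.0656). Neither passed the threshold. From early to late days Gja1 fell in WT by 0.69 (SE 0.19, adjusted p = 0.0213), and the change in Tnfr2-/- cultures was 0.30 (SE 0.19, adjusted p = 0.313).

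The difference between these changes, 0.99 (SE 0.27), had an adjusted p of 0.182 with libraries as independent samples and of 0.0223 once the mouse entered as a block, which compares early and late days within each animal. In the blocked fit Gja1 was the only one of the 9 genes called for this difference, against 1.2% of all tested genes. As a correlated block the mouse gave 0.0955, and mouse means gave 0.303. With libraries as independent samples, the difference was called without WT mouse 1 (0.98, adjusted p = 0.0449) or WT mouse 2 (1.00, adjusted p = 0.0415) and was not called without Tnfr2-/- mouse 1 (0.91, adjusted p = 0.931) or mouse 2 (1.07, adjusted p = 0.691). Both WT libraries at 5 DPP bore on these values. Without that of WT mouse 2 the late difference was 0.96 (adjusted p = 0.0066) and the change in difference 1.25 (adjusted p = 0.0298). Without WT mouse 1 at 5 DPP they were 0.44 (adjusted p = 0.243) and 0.73 (adjusted p = 0.336). The late difference was 0.43 (adjusted p = 0.101) without all libraries of WT mouse 1 and 0.96 (adjusted p = 0.00264) without those of WT mouse 2. The fall in WT lost its call without WT mouse 1 at 5 DPP (-0.44, adjusted p = 0.106) or 7 DPP (-0.68, adjusted p = 0.0701), and without WT mouse 2 at 1, 2 or 3 DPP (adjusted p between 0.0533 and 0.0543).

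With the summed level of the fibroblast markers over the 20 libraries, Gja1 had a Pearson r of 0.74 and Ankrd1 one of 0.71. The others were Amotl2 at 0.60, Anxa1 at 0.55, Clu at 0.52, Spp1 at 0.47, Ajuba at 0.24, Yap1 at 0.21 and Msln at 0.06. The sum is weighted to abundant markers, and with the 12 markers singly r ran from -0.14 to 0.86 for Gja1 (median 0.52) and from 0.17 to 0.76 for Ankrd1 (median 0.45). This is a description, because the libraries share mice and scaling. The 3 genes of most similar pattern were Hgf, which encodes hepatocyte growth factor (r = 0.95), Foxf1, a transcription factor of gut mesenchyme (r = 0.93), and Zwint, a kinetochore protein gene (r = 0.93). Hgf was at 13.2 to 36.7 in late WT libraries and 55.5 to 73.8 in late Tnfr2-/- libraries, values that carry no test because the gene was chosen for its likeness to Gja1 in the same libraries. Of 19 connexin genes in the table, 7 had a mean of at least 1. Gjb5, an epithelial connexin, was the only one of the 7 called between genotypes over all days (0.85, SE 0.21, adjusted p = 0.0183), where 7.6% of all tested genes were called. That count of 1 was 0 without WT mouse 1, without either Tnfr2-/- mouse and on mouse means. With time, 2 of the 7 were called in each genotype, Gja1 included in WT, where 20.1% of all tested genes were called in WT and 20.3% in Tnfr2-/- cultures. Gjb1, the connexin 32 of differentiated epithelia, rose with time in WT by 2.05 (SE 0.32, adjusted p = 0.00101). In Tnfr2-/- cultures Gjb2 fell by 0.67 (SE 0.17, adjusted p = 0.0121) on the log2 scale.

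Anxa1 encodes annexin A1, a phospholipid-binding protein released in inflammation and a marker of the fetal-like epithelium. WT mouse 1 had 4398, 3045, 2536, 1681 and 1610 at 1, 2, 3, 5 and 7 DPP, and WT mouse 2 had 4009, 5069, 4977, 3332 and 2478. The same days gave 5207, 3658, 3492, 3886 and 3347 in Tnfr2-/- mouse 1 and 3774, 3820, 3335, 4583 and 2759 in Tnfr2-/- mouse 2. Its level fell in WT by 0.84 on the log2 scale (SE 0.23, adjusted p = 0.0214), and the change in Tnfr2-/- cultures was -0.10 (SE 0.23, adjusted p = 0.805). The difference between these changes, 0.74 (SE 0.33), did not pass the threshold (adjusted p = 0.398, and 0.118 in the fit blocked by mouse). At 5 and at 7 DPP both Tnfr2-/- mice were above both WT mice of the same day, with ratios of the means of 1.69 and 1.49, and the late difference was 0.72 (SE 0.25, adjusted p = 0.11). Without WT mouse 2 the late difference was 1.12 (adjusted p = 0.00264), and without WT mouse 1 it was 0.32 (adjusted p = 0.276). It was 0.97 (adjusted p = 0.0291) without WT mouse 2 at 5 DPP and 0.47 (adjusted p = 0.383) without WT mouse 1 at 5 DPP. The fall in WT lost its call without WT mouse 1 at 5 DPP (-0.59, adjusted p = 0.115) or 7 DPP (-0.68, adjusted p = 0.107) and without WT mouse 2 at 2 DPP (-0.71, adjusted p = 0.0537) or 3 DPP (-0.68, adjusted p = 0.051).

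Among the 11 annexin genes tested, 2 were called higher in late Tnfr2-/- cultures and none lower (median 0.33), where 6.45% of all tested genes were called. Over all days 2 were higher, where 7.6% of all tested genes were called. At the early days none was called in limma (1.2% of all genes), and 4 had an unadjusted p under 0.05, as did 1746 of all 13539 tested genes. With time 2 rose and 1 fell in WT, where 20.1% of all tested genes were called, and 1 rose in Tnfr2-/- cultures, where 20.3% were. At the late days Anxa5, whose protein binds exposed phosphatidylserine, differed by 0.83 (SE 0.22, adjusted p = 0.0395) and Anxa2 by 0.52 (SE 0.13, adjusted p = 0.0338). Anxa8 rose with time in both genotypes, by 0.70 in WT (SE 0.14, adjusted p = 0.00411) and 0.85 in Tnfr2-/- cultures (SE 0.14, adjusted p = 0.00121). The late count of higher annexins was 2 without WT mouse 1, 6 without WT mouse 2 and 0 without either Tnfr2-/- mouse.

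Clu encodes clusterin, a secreted chaperone that marks revival stem cells of the injured intestine. At 1, 2, 3, 5 and 7 DPP its level was 549.5, 285, 265, 593 and 1485 in WT mouse 1 and 1989, 1507, 1341, 2930 and 3462 in WT mouse 2. Tnfr2-/- mouse 1 gave 2258, 1163, 1112, 2344 and 2606 on these days and Tnfr2-/- mouse 2 gave 1583, 976, 1066, 2546 and 2826. All 4 mice had their lowest values at 2 or 3 DPP and their highest at 7 DPP. The 2 Tnfr2-/- mice lay between the 2 WT mice at 2, 3, 5 and 7 DPP. The late minus early change was 1.22 in WT and 0.99 in Tnfr2-/- cultures (SE 0.58 each), with adjusted p of 0.161 and 0.266. With the mouse as a block, which takes out the constant distance between WT mice, both rises were called (adjusted p = 3.03e-04 and 0.00109). On mouse means the adjusted p was 0.0463 in WT and 0.0596 in Tnfr2-/- cultures. The genotype difference over all days was 0.71 (SE 0.36, adjusted p = 0.252). Without WT mouse 1 it was -0.30 (adjusted p = 0.0819) and without WT mouse 2 it was 1.72 (adjusted p = 2.64e-05), so that its sign rested on 1 animal. The gene nearest to Clu in pattern was Fn1, which encodes fibronectin (r = 0.95), followed by Ctla2a (r = 0.91) and the bicarbonate cotransporter gene Slc4a4 (r = 0.90).

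**Figure D4:**
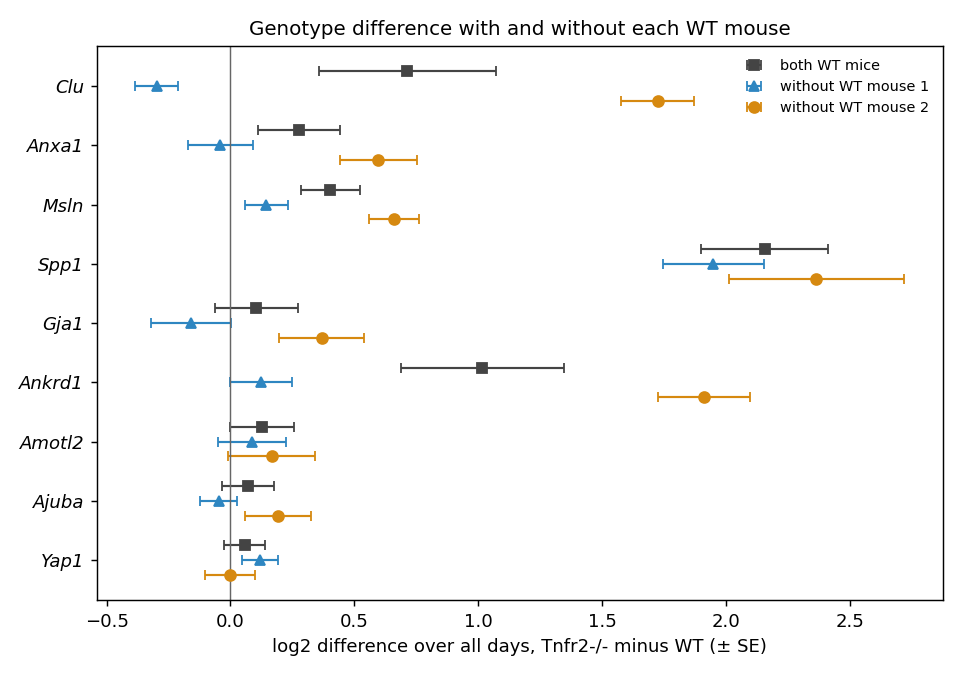
Log2 difference over all days (Tnfr2-/- minus WT, points, with SE as bars) of the 9 genes with both WT mice (grey squares), without WT mouse 1 (blue triangles) and without WT mouse 2 (orange circles). Clu runs from -0.30 to 1.72 and Ankrd1 from 0.12 to 1.91, whereas Spp1 stays between 1.95 and 2.36.

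Msln encodes mesothelin, a surface glycoprotein of mesothelium that is also switched on in regenerating epithelium. It rose to a peak and fell again in all 4 mice. WT mouse 1 had 299, 555, 536, 373 and 333 at 1, 2, 3, 5 and 7 DPP, and WT mouse 2 had 358, 815, 879, 685 and 378. The same days gave 596, 792, 1012, 707 and 371 in Tnfr2-/- mouse 1 and 461, 773, 994, 700.1 and 388 in Tnfr2-/- mouse 2. The peak was at 3 DPP in 3 mice and at 2 DPP in WT mouse 1. The change over the 5 days was called (adjusted p = 4.55e-04 by the limma F test), with 1.18 between the highest and the lowest day. From early to late days Msln changed by -0.33 in WT (SE 0.18, adjusted p = 0.212) and by -0.53 in Tnfr2-/- cultures (SE 0.18, adjusted p = 0.0505). With a single library left out the change ran from -0.55 to -0.11 in WT and from -0.59 to -0.46 in Tnfr2-/- cultures. Not all of these fits stayed above the threshold in either genotype. Both falls were called with the mouse as a block (adjusted p = 0.0399 and 0.00386) and neither on mouse means (adjusted p = 0.191 and 0.0899). Both Tnfr2-/- mice were above both WT mice at 1, 3 and 5 DPP. Over all days Msln was higher in Tnfr2-/- cultures by 0.40 (SE 0.12, adjusted p = 0.047). This call stood close to the threshold. It was lost in 16 of the 20 fits without a single library (adjusted p between 0.0234 and 0.0917 over the 20), under a fit that treats libraries of a mouse as correlated (adjusted p = 0.0847) and without WT mouse 1 (0.15, adjusted p = 0.411). It was also lost without Tnfr2-/- mouse 1 (0.37, adjusted p = 0.28) or mouse 2 (0.44, adjusted p = 0.265), and without WT mouse 2 it was 0.66 (adjusted p = 0.00127). The genes nearest to Msln in pattern were Fabp5, a fatty acid binding protein gene (r = 0.95), Krt14, the basal keratin (r = 0.95), and Map6 (r = 0.90).

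Ankrd1, the cardiac ankyrin repeat protein gene, was the lowest of the 9 genes. At 1, 2, 3, 5 and 7 DPP its level was 3.20, 6.29, 1.76, 3.26 and 3.80 in WT mouse 1 and 20.2, 14.2, 12.4, 11.3 and 14.9 in WT mouse 2. Tnfr2-/- mouse 1 gave 22.6, 14.2, 12.3, 11.8 and 23.9 on these days and Tnfr2-/- mouse 2 gave 17.4, 15.2, 13.9, 15.4 and 14.4. Values of a few units rest on few reads, and the table gives no read depth from which their error could be set. The genotype difference over all days was 1.02 (SE 0.33, adjusted p = 0.0706), 0.12 without WT mouse 1 (adjusted p = 0.673) and 1.91 without WT mouse 2 (adjusted p = 6.66e-05). It was called without WT mouse 2 at 1 DPP (1.17, adjusted p = 0.0317), 2 DPP (1.12, adjusted p = 0.0487) or 3 DPP (1.17, adjusted p = 0.0358). Its changes with time were -0.09 in WT and 0.02 in Tnfr2-/- cultures (SE 0.54 each).

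Amotl2 ranged from 20.5 to 44.7 in WT (median 32.0, n = 10) and from 19.9 to 54.5 in Tnfr2-/- cultures (median 35.3, n = 10). It was called in no comparison of the main fit, with a genotype difference of 0.13 over all days (SE 0.13, adjusted p = 0.601) and 0.39 at the late days (SE 0.20, adjusted p = 0.265). The change over the 5 days was 0.74 between the highest and the lowest day (adjusted p = 0.0603 by the limma F test). With a single library left out that change ran from 0.62 to 0.90, and some of these fits passed the threshold. Its signal was spread over 8 transcripts with a mean of at least 1, of which the highest held 22.2%. Yap1 itself had the smallest SD relative to its mean of the 9 genes. It ranged from 45.4 to 74.6 in WT (median 57.6, n = 10) and from 49.1 to 71.6 in Tnfr2-/- cultures (median 58.8, n = 10), with a genotype difference of 0.06 over all days (SE 0.08, adjusted p = 0.728). In Tnfr2-/- cultures the 4 late libraries (67.1 to 71.6) lay above the 6 early libraries (49.1 to 59.1), a change of 0.31 (SE 0.12, adjusted p = 0.0775). That change was called without WT mouse 1 (adjusted p = 0.0402) or WT mouse 2 (adjusted p = 0.04) at 1 DPP, and without either WT mouse at all days (adjusted p = 0.0199 and 0.0194), where its size was the same because no Tnfr2-/- library was left out. It was not called in the other 18 fits without a single library, nor without Tnfr2-/- mouse 1 (adjusted p = 0.465) or mouse 2 (adjusted p = 0.512). In WT the change was 0.16 (SE 0.12, adjusted p = 0.366).

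Ajuba fell with time in both genotypes. WT mouse 1 had 74.6, 64.2, 51.0, 24.0 and 32.8 at 1, 2, 3, 5 and 7 DPP, and WT mouse 2 had 67.6, 62.5, 66.1, 46.5 and 34.7. The same days gave 71.8, 66.3, 60.2, 45.7 and 34.5 in Tnfr2-/- mouse 1 and 59.3, 56.0, 54.3, 46.8 and 38.1 in Tnfr2-/- mouse 2. Early and late libraries did not overlap in either genotype. The fall was 0.91 in WT (log2 change -0.91, SE 0.15, adjusted p = 0.00154) and 0.56 in Tnfr2-/- cultures (log2 change -0.56, SE 0.15, adjusted p = 0.0192), and the difference between them was 0.34 (SE 0.22, adjusted p = 0.566). The fall in Tnfr2-/- cultures lost its call without Tnfr2-/- mouse 1 at 1 DPP (adjusted p = 0.0522), 5 DPP (0.0623) or 7 DPP (0.072) and without Tnfr2-/- mouse 2 at 5 DPP (0.055). It also lost its call without all libraries of Tnfr2-/- mouse 1 (-0.41, adjusted p = 0.49) or mouse 2 (-0.72, adjusted p = 0.215). The fall in WT kept its call without either WT mouse (adjusted p = 0.0218 and 0.00162). The late genotype difference was 0.28 (SE 0.17, adjusted p = 0.353), and single WT libraries moved it in both directions. It was 0.51 (adjusted p = 0.025) without WT mouse 2 at 5 DPP and 0.046 (adjusted p = 0.907) without WT mouse 1 at 5 DPP. Without all libraries of WT mouse 1 it was 0.027 (adjusted p = 0.938), and without those of WT mouse 2 it was 0.53 (adjusted p = 0.0282).

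**Figure D5:**
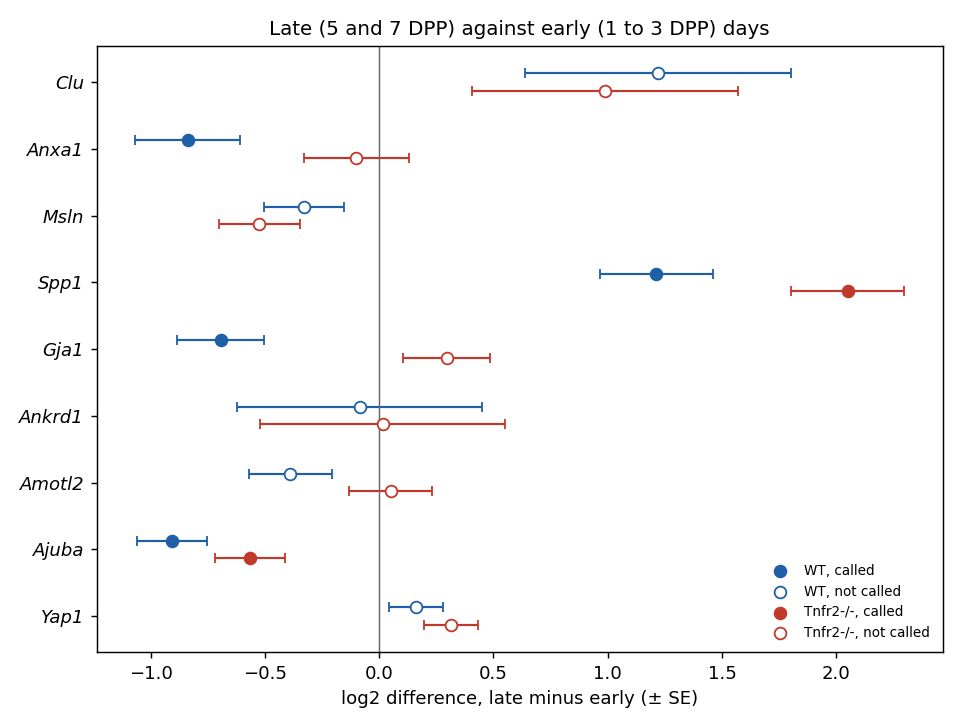
Log2 difference between late (5 and 7 DPP) and early (1 to 3 DPP) days, points with SE as bars, for the 9 genes in WT (blue) and Tnfr2-/- (red). Filled points had an adjusted p under 0.05. Spp1 rises and Ajuba falls in both genotypes, while Anxa1 and Gja1 are called in WT and not in Tnfr2-/- cultures.

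Counted over the 9 genes, 4 changed between early and late days in WT (Spp1 up, and Anxa1, Gja1 and Ajuba down), where 20.1% of all tested genes were called. In Tnfr2-/- cultures 2 changed (Spp1 up and Ajuba down), against 20.3% of all genes. With the mouse as a block the counts were 6 in WT (24.9% of all genes) and 4 in Tnfr2-/- cultures (24.7% of all genes), by the addition of Clu and Msln in both. On mouse means they were 2 in WT (Clu and Spp1) and 1 in Tnfr2-/- cultures (Spp1). Some change over the 5 days was called for Msln, Spp1 and Ajuba (28.0% of all genes), and with the mouse as a block also for Clu and Anxa1 (32.3% of all genes). That a gene was called in WT and not in Tnfr2-/- cultures does not show a difference between them, and for Anxa1 that difference did not pass the threshold with or without the mouse as a block.

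The remaining genes of the YAP pathway were taken from lists. Of 30 genes of the YAP-TAZ core and the Hippo kinase cascade (Yap1, Ajuba and Amotl2 included), none was called between genotypes over all days, where 7.6% of all tested genes were called. Their median was 0.08 against -0.03 for all tested genes. An unadjusted p under 0.05 in limma was found for 7 of the 30, a share near that of all tested genes (3023 of 13539). At the late days 3 of the 30 were called higher in Tnfr2-/- cultures and none lower, a share near the 6.45% of all tested genes called. Frmd6, an upstream FERM-domain protein, was at 23.1 to 39.9 against 14.8 to 22.3 in WT (0.75, SE 0.12, adjusted p = 0.00421). Tead1, a DNA-binding partner of YAP, was at 26.0 to 38.4 against 20.5 to 25.3 (0.49, SE 0.12, adjusted p = 0.0268). Wwtr1, which encodes TAZ, the paralogue of YAP, was at 23.0 to 39.3 against 9.73 to 23.6 (0.83, SE 0.22, adjusted p = 0.0418). The late count was 5 without WT mouse 2, and 0 without any 1 of the other 3 mice or on mouse means. With time, 1 of the 30 rose and 2 fell in each genotype, where 20.1% of all tested genes were called in WT and 20.3% in Tnfr2-/- cultures. Amot, an angiomotin, rose by 1.08 in WT (SE 0.17, adjusted p = 0.00113) and by 1.10 in Tnfr2-/- cultures (SE 0.17, adjusted p = 8.09e-04). Beside Ajuba, Frmd6 fell in WT by 0.56 on the log2 scale (SE 0.11, adjusted p = 0.00421), and Wwc1, which encodes the upstream Hippo component KIBRA, fell in Tnfr2-/- cultures by 0.84 (SE 0.22, adjusted p = 0.0163).

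Of 22 YAP-TAZ target genes (Ankrd1 and Amotl2 included), over all days 5 were called higher in Tnfr2-/- cultures and 1 was called lower, where 7.6% of all tested genes were called, and their median was 0.22. Those higher were Nt5e, the ectonucleotidase CD73 (0.89, SE 0.13, adjusted p = 3.19e-04), Ccn2, the matricellular factor CTGF (1.10, SE 0.27, adjusted p = 0.0182), Igfbp3 (1.43, SE 0.35, adjusted p = 0.0183), the stress gene Gadd45a (0.98, SE 0.24, adjusted p = 0.0189) and F3, tissue factor (0.84, SE 0.21, adjusted p = 0.0194). Foxf2, a transcription factor of gut fibroblasts, was lower (-0.83, SE 0.22, adjusted p = 0.0291). At the late days 2 of the 22 were called, Nt5e and F3, which is near the 6.45% of all tested genes. At the early days 1 was higher and 1 lower, where 1.2% of all tested genes were called. F3 was at 1511 to 1691 in late Tnfr2-/- libraries against 328 to 1010 in late WT libraries (1.25, SE 0.31, adjusted p = 0.031). The all-day count of 5 higher was 3 without WT mouse 1, 10 without WT mouse 2, 1 without either Tnfr2-/- mouse and 0 on mouse means. The count of 1 lower was 0 when libraries of a mouse were treated as correlated, without WT mouse 2, without either Tnfr2-/- mouse and on mouse means. The late count of 2 was 10 without WT mouse 2, and 0 without either Tnfr2-/- mouse and on mouse means. Several of these targets, such as Ccn2 and Igfbp3, are also expressed by fibroblasts, and Igfbp3 was among the 3 genes most like Ankrd1 in pattern (r = 0.88).

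Of 19 other regenerative epithelial genes, 6 were called higher and none lower in late Tnfr2-/- cultures, where 6.45% of all tested genes were called, and their median was 0.52. Ereg, which encodes the EGF-family ligand epiregulin, was at 234 to 436 in late Tnfr2-/- libraries and 32.2 to 129 in late WT libraries (2.42, SE 0.18, adjusted p = 1.12e-05). It was the only one of the 19 whose genotype difference changed from early to late days (2.17, SE 0.24, adjusted p = 0.00483, where 0.148% of all tested genes were called; in the fit blocked by mouse 2 of the 19 and 1.2% of all genes were called), and it fell in WT by 1.42 (SE 0.17, adjusted p = 1.88e-04) while it rose in Tnfr2-/- cultures by 0.74 (SE 0.17, adjusted p = 0.00746). The cornified envelope gene Sprr1a was higher by 1.17 (SE 0.25, adjusted p = 0.0166) and Ly6a, which encodes Sca-1, by 0.70 (SE 0.16, adjusted p = 0.0204). At the early days none of the 19 was called in limma (1.2% of all genes), and 5 had an unadjusted p under 0.05, as did 1746 of all 13539 tested genes. Over all days 6 were higher and 1, Crip2, was lower (-0.68, SE 0.19, adjusted p = 0.0386), where 7.6% of all genes were called. With time, 1 rose and 6 fell in WT, where 20.1% of all tested genes were called. In Tnfr2-/- cultures 3 rose and 3 fell, where 20.3% of all tested genes were called. The difference between these counts was not tested. The late count of higher genes was 6 without WT mouse 1, 11 without WT mouse 2, 1 without either Tnfr2-/- mouse and 0 on mouse means.

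Across the 20 libraries the 9 genes did not move as 1 block. The closest pairs were Anxa1 and Ajuba (Pearson r = 0.79) and Clu and Ankrd1 (r = 0.74), the second pair both low in WT mouse 1, and Clu with Msln was at -0.02. The genes nearest to Spp1 were Trim15 (r = 0.93), Stom, which encodes stomatin (r = 0.93), and Chmp5, of the endosomal sorting machinery (r = 0.91). Those nearest to Anxa1 were Tspan6 (r = 0.92), the membrane-cytoskeleton linker gene Rdx (r = 0.86) and Rap2b (r = 0.86), and those nearest to Ankrd1 besides Igfbp3 were the RNA-binding protein gene Qk (r = 0.92) and Bnip2 (r = 0.88). For Ajuba they were Slc25a48, Tmem138 and Krr1 (r = 0.90 each), for Yap1 they were Mef2a (r = 0.84), Rab11fip1 (r = 0.83) and Chp1 (r = 0.81), and for Amotl2 no gene exceeded Slc2a6 (r = 0.74), ahead of Kctd2 (r = 0.73) and Fgfr1 (r = 0.71). These correlations describe libraries that share mice, days and scaling, and carry no test.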

How the data were processed

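mRNA of 20 colonoid libraries (2 genotypes, 5 days, 2 mice per genotype) was sequenced by the submitters as single-end reads from a stranded library. Per the labels and the study's methods, the authors processed reads with CASAVA, pseudoaligned them with kallisto to transcripts of mm10 and tested them with sleuth; versions are not taken from the sources used here. The deposited table holds 1 signal value for each transcript, which is TPM rescaled by the authors with library size factors, and each library summed to between 899764 and 1110233. The authors' p-values, q-values, test statistics and log-scale means of the same table were not used. Read depth per library is not in the table, and counting intervals are therefore absent.

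Of 113974 lines, 781 repeats were dropped, and 113193 transcripts were summed per gene symbol (35240 symbols); 199 transcripts had no symbol. Values were analysed as log2(value + 1), a pseudocount of 1, which understates changes of low genes, for 13539 symbols with a mean of at least 1. Models were fitted in limma 3.58.1 (R 4.3.3), with the trend of variance on mean level, and p-values were adjusted over all 13539 by Benjamini and Hochberg's method. A gene is called where its adjusted p is under 0.05. The all-day genotype effect and the F test of change over days came from day as a factor plus genotype, and the other contrasts from 10 group means, early being the mean of 1, 2 and 3 DPP and late that of 5 and 7 DPP. The code was tested on simulated data.

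Samples were grouped by title. Replicate numbers were read as naming the mouse, from the M1 and M2 in the sample descriptions. Because the same mouse gave all 5 days, contrasts within a genotype and the interaction were also fitted with the mouse as a block. Deviations from group means of libraries of the same mouse correlated at 0.1 to 0.307 in WT and -0.051 to 0.08 in Tnfr2-/- cultures. WT and Tnfr2-/- mice of the same number are different animals. The alternatives were other pseudocounts, filters, scaling, block terms, mouse means and leaving out each library or mouse.

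The 9 genes and all lists were chosen with earlier results of these data known, and support nothing as independent evidence. The text names all 9 genes, up to 4 genes of lowest adjusted p among those called per list and comparison, any marker gene, and the 3 genes of highest Pearson r with each of the 9. Coordinates are GENCODE M21 on GRCm38, which held 98.3% of the table's gene identifiers, and promoter windows are RefSeq, GRCm38.p6.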

Additional observations from a re-analysis of the deposited data

Results flagged for a closer look

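With 36 sets of 4 or 6 libraries examined, chance alone marks about 1 in 20. A library far from the rest of its set was found for Gja1 in late WT libraries, where WT mouse 1 at 5 DPP (64.5) was apart by 0.954 of the range of the set on the log2 scale, for Spp1 in the same set and the same library (45.9, 0.879 of the range), and for Anxa1 in early Tnfr2-/- libraries, where Tnfr2-/- mouse 1 at 1 DPP (5207) was apart by 0.695 of the range.

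The change of Gja1 from early to late days differed between genotypes by 0.99 on the log2 scale. It was marked because both WT mice fell (-0.70 and -0.69) and both Tnfr2-/- mice rose (0.38 and 0.21). The test of the difference gave an adjusted p of 0.182 in limma with libraries as independent samples and 0.0223 with the mouse as a block.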

How the results depend on the processing

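The number of the 9 genes called was recomputed under each alternative. Over all days the main count of 2 became 1 without a filter on low values, without the mean-variance trend, with the mouse as a correlated block or with day as a linear term, and 0 on mouse means of 2 against 2. On mouse means the late count of 1 and the early count of 1 also became 0, the count of 4 for late minus early in WT became 2, and the count of 2 in Tnfr2-/- cultures became 1. The replicate number as a block, which pairs no animals across genotypes, raised the late count from 1 to 2 and the count for the interaction from 0 to 1. With the mouse as a replicate block the interaction count was also 1, the count in Tnfr2-/- cultures 4 and the count for any change over the 5 days 5. The other counts stayed within 1.5 times. When each library or each mouse was left out in turn, the counts ran from 1 to 5 over all days, 0 to 7 late, 0 to 4 early, 0 to 1 for the interaction, 2 to 5 in WT, 0 to 5 in Tnfr2-/- cultures and 3 to 5 for any change. With a single library left out, the late count ran from 1 to 4, the early count stayed at 1 and the count in Tnfr2-/- cultures ran from 1 to 3. With a whole mouse left out, the mouse that remained was assumed to vary like the others. The share of all tested genes called in these leave-out fits is not given, so the counts describe the fits and not the genes.

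No called value changed sign. Of values not called, 58 of 1200 changed sign when a library or mouse was left out, and their ranges over these fits were as follows on the log2 scale. Over all days Clu ran from -0.30 to 1.72, Anxa1 from -0.041 to 0.60, Gja1 from -0.16 to 0.37, Ajuba from -0.048 to 0.19 and Yap1 from -0.002 to 0.12. At the late days Clu ran from -0.31 to 1.46. At the early days Clu ran from -0.29 to 1.90, Anxa1 from -0.28 to 0.24, Amotl2 from -0.18 to 0.081, Ajuba from -0.18 to 0.044 and Yap1 from -0.13 to 0.12, and Yap1 was at 0.012 with median-ratio rescaling. For the interaction Clu ran from -0.81 to 0.34, Msln from -0.41 to 0.022, Ankrd1 from -0.33 to 0.53 and Yap1 from -0.017 to 0.33. For late minus early, Ankrd1 ran from -0.52 to 0.35 and Yap1 from -0.01 to 0.33 in WT, and in Tnfr2-/- cultures Ankrd1 ran from -0.16 to 0.19 and Amotl2 from -0.14 to 0.24. The cause of these changes was not tested. The number of mice limits all values, and read depth per library is not in the table used here.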
